A study of Mus musculus with 5 samples.

Results

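Fibroblasts and pericytes are the stromal cells that surround vessels, and 9 genes commonly used to mark them were followed here in cultures labelled as mouse aortic endothelial cells: the receptors Pdgfra and Pdgfrb, the secreted matrix proteins Dcn, Lum, Dpt and Fbln1, and the surface proteins Thy1, Cspg4 and Fap. Members were all probe sets whose only annotated symbol was one of these 9, which gave 16 of the 45101 probe sets on the array. The 9 genes belong to 18194 genes with a probe set of a single symbol. RNA was measured on 5 one-colour oligonucleotide arrays, 3 of them titled control (arrays C1 to C3, by replicate number) and 2 titled TNF-LTBR (T1 and T2), each at 24 h. All 5 cultures were of C57BL/6J background and were grown in DMEM with serum, heparin and endothelial growth supplement. By the treatment text, which is the same for every sample, stimuli were added in PBS and cells were also supplemented with PBS only. The group named TNF-LTBR therefore rests on its titles, which refer to tumour necrosis factor and the lymphotoxin beta receptor; no source used here gives the agonists or their doses. Whether replicate arrays came from different cultures or animals is not stated, so a p-value here measures the spread between these samples alone, which may be technical.

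PDGF receptors are tyrosine kinases that drive growth and migration of mesenchymal cells. The alpha form is a standard marker of fibroblasts, and the beta form is carried by pericytes, smooth muscle cells and many fibroblasts, which respond to PDGF-B made by endothelium. Decorin and lumican are small leucine-rich proteoglycans that bind collagen fibrils. Quiescent endothelium normally carries little of most of these transcripts, so they are widely used to look for stromal cells in a vascular culture.

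All 9 genes lay above the brightness limit used for testing, a mean log2(intensity + 16) of 7.17, which corresponds to an intensity of 128. The limit applies to the mean, and single readings lay under it for Fap on C1 and T2 (107.3 and 56.2) and for Thy1 on T2 (127.9). The limit was set so that 60% of the 18194 genes lay above it. Of 17 endothelial markers, 10 lay below the same limit, among them Pecam1, Cdh5, Tek, Tie1, Vwf and Erg. Vwf, which encodes von Willebrand factor, had an intensity between 2.3 and 7.2 on the 5 arrays. Cdh5, which encodes the endothelial cadherin, had intensities of 235.6, 123.2 and 55.3 on C1 to C3 and 135.1 and 28.7 on T1 and T2. Vwf and Cdh5 were picked with their values in view. Eng, a TGF-beta co-receptor that stromal cells can also carry, lay at 1550.2 to 1858.3 on all 5 arrays. The other 7, Kdr, Flt1, Emcn, Plvap, Eng, Egfl7 and Esam, lay above it. The limit ranks genes on these arrays and does not show whether a gene was expressed. In bulk RNA, fewer cells of a type and less RNA per cell cannot be told apart.

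The closest arrays did not share a title. Over the 10916 genes tested, C2 correlated with T1 at 0.976 and C3 with T2 at 0.978, while C2 and C3 correlated at 0.895. These are Pearson correlations across genes, which are not independent replicates. The first principal component held 65.9% of the variance and placed C2 and T1 at -33.84 and -38.53, C3 and T2 at 42.02 and 34.14, and C1 at -3.79. The second held 19.4% and placed the controls at 35.31, -4.59 and -4.03 and T1 and T2 at -14.57 and -12.11, so that on it every control lay above both TNF-LTBR arrays and C1 stood far from the other 4. The difference between groups is therefore given for each member with its value on every array and with arrays left out.

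Regulatory sequence is shown for the 3 members that stand for the patterns described below: Pdgfra, whose groups did not overlap, and Dpt and Fbln1, which were high on different arrays of each group. Each run holds the 250 bases upstream of a RefSeq gene start in GRCm38.p6, 5′ to 3′ on the plus strand, and capitals mark matches to a loose form of the site bound by NF-kB (3 G, any 5 bases, then 2 C), searched on both strands. Pdgfra lies at chr5:75152001-75152250, Dpt at chr1:164796413-164796662 and the upstream one of 2 Fbln1 starts at chr15:85205699-85205948.
Pdgfra: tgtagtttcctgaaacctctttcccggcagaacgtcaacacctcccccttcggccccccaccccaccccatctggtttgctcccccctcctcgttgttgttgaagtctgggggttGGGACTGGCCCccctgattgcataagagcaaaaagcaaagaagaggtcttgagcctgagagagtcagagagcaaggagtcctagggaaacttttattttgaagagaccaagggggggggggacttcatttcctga
Dpt: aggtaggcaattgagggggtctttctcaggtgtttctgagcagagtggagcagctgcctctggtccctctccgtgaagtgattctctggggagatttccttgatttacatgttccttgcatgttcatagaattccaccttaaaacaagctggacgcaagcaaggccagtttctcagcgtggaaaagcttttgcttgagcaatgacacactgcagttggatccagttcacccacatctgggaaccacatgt
Fbln1: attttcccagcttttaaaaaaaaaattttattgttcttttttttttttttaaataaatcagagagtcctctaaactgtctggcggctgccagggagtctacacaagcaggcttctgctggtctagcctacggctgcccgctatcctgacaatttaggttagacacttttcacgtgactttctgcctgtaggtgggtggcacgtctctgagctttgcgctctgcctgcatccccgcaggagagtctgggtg
The Pdgfra window held 2 overlapping matches, between 135 and 125 bases before the start, and the printed Dpt and Fbln1 windows held 0. The window of the other Fbln1 start held 4 matches, more than that of Pdgfra, and that of Cspg4 held 1. The matches therefore do not separate Pdgfra from Fbln1. Of 32851 such windows, 45.8% held at least 1, and a match describes letters, not a bound site. RefSeq windows were matched for 4 of the 9 members, Pdgfra, Dpt, Fbln1 and Cspg4.

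Between the groups, 0 of the 9 genes passed the test (limma, adjusted p 0.999 for each), against 0% of all genes tested, and 0 of 9 had an unadjusted p under 0.05, against 1.76% of all genes. By mean, 5 members were higher and 4 lower in TNF-LTBR, with a median difference of 0.19 on the log2 scale against -0.0035 over all genes tested, of which 49.3% were higher. Pdgfra was the 1 member with both TNF-LTBR arrays above all controls, against 6.94% of all genes, and 0 of 9 had both below, against 6.34%. Most members spread widely among the controls, and fewer did so between the TNF-LTBR arrays. A gap between 2 arrays tends to be narrower than a range over 3, so the spreads of the groups are not comparable. The range among the 3 control arrays was at least 2 on the log2 scale for 6 of 9 members, against 3.61% of all genes, and the 2 TNF-LTBR arrays lay at least 2 apart for 4 of 9, against 2.23%. The median control range was 3.03 for the members and 0.42 over all genes tested, and the median gap between the TNF-LTBR arrays was 1.05 and 0.29.

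**Figure D1:**
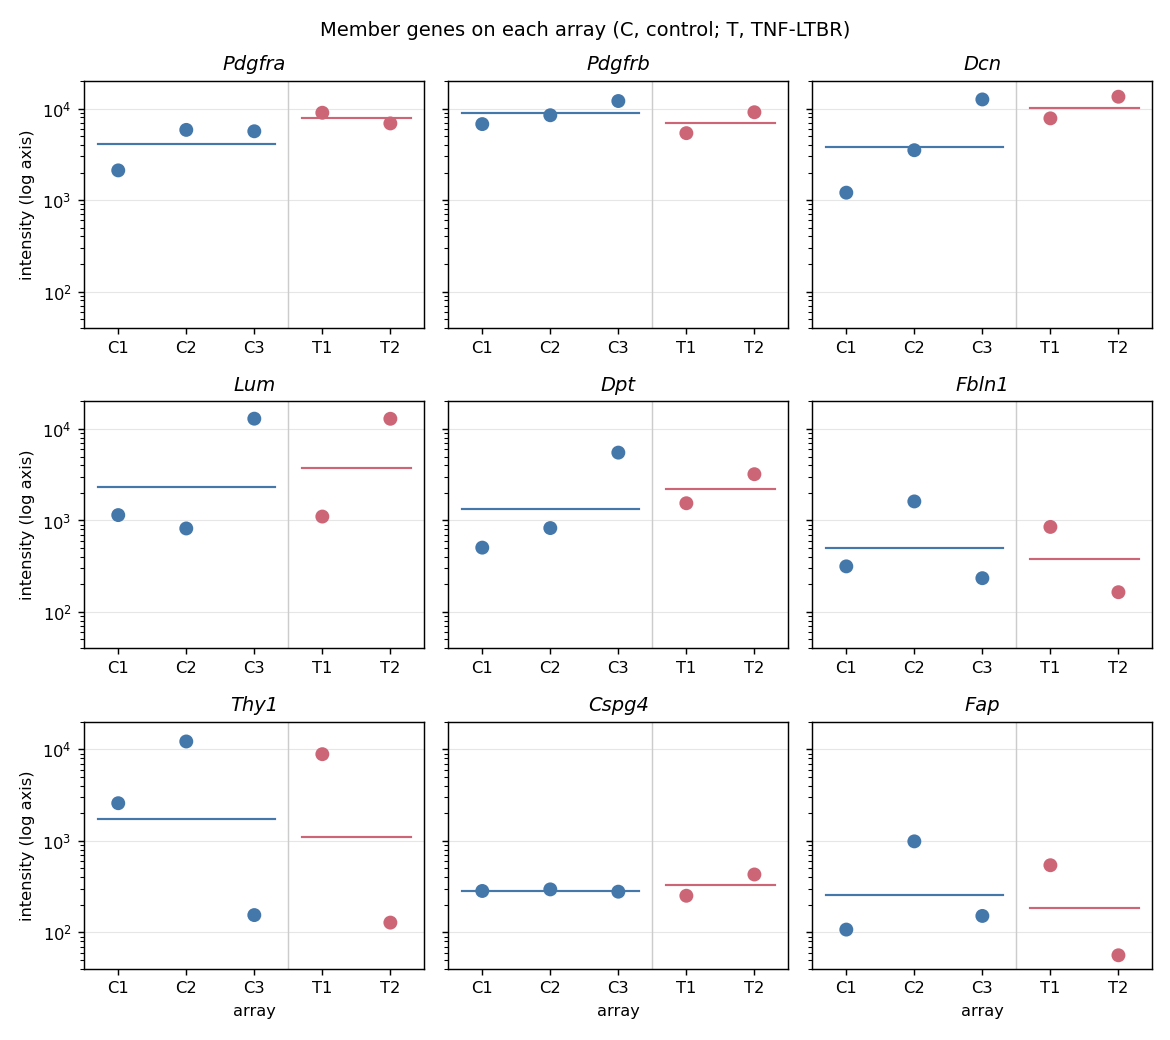
Intensity of each member's brightest probe set (log axis) on the control arrays (C1 to C3, blue) and the TNF-LTBR arrays (T1, T2, red), with a line at the group mean taken on the log2(intensity + 16) scale. Pdgfra is the panel in which both red points lie above all blue ones, while Lum and Thy1 span more than an order of magnitude within each group.

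Among the receptors, Pdgfra was higher in TNF-LTBR on all 3 of its probe sets. On the brightest (1421917_at) its intensity was 2110.1, 5847.9 and 5646.9 on C1 to C3 and 9001.8 and 6880.8 on T1 and T2. T1 and T2 both exceeded every control, and C1 was the low array. The means were 12.01 ± 0.83 (SD, n = 3) and 12.95 ± 0.27 (SD, n = 2) on the log2(intensity + 16) scale, a 1.91-fold difference. The log2 difference was 0.93 with a 95% interval of -0.31 to 2.17 (limma, adjusted p 0.999). It was 0.45 without C1 and 1.18 without C2.

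The dimmer Pdgfra probe sets gave the same direction at lower intensities. Probe set 1421916_at read 313.7, 1014.9 and 791.0 on C1 to C3 and 1816.0 and 1353.7 on T1 and T2, again without overlap. Its log2 difference was 1.29 (limma over every probe set, adjusted p 1.000). Probe set 1438946_at read 276.7, 894.5 and 485.1 on C1 to C3 and 1404.1 and 779.4 on T1 and T2, a difference of 1.06, and here C2 lay above T2. The order of C1 as the lowest array and T1 as the highest was shared by all 3 probe sets.

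Pdgfrb, the receptor carried by pericytes and smooth muscle cells, differed the other way and by less. The brightest probe set (1436970_a_at) read 6764.4, 8454.1 and 12094.0 on C1 to C3 and 5386.3 and 9117.5 on T1 and T2. C3 was the highest array and T1 the lowest, and the groups overlapped. The means were 13.11 ± 0.42 and 12.78 ± 0.54, a log2 difference of -0.33 with a 95% interval of -1.18 to 0.51 (limma, adjusted p 0.999). The second probe set (1417148_at) kept the same order of the 5 arrays, with a difference of -0.56. The difference was 0.044 without T1, -0.11 without C3, -0.71 without T2 and -0.53 without C1.

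The ligands of these receptors were measured beside them. Of 4 PDGF genes, 3 lay above the brightness limit, all 3 with lower means in TNF-LTBR, and 0 passed the test. Pdgfd, which encodes a ligand of the beta receptor, read 3986.3, 2394.2 and 4026.2 on C1 to C3 and 1249.6 and 2218.7 on T1 and T2. T1 and T2 were both under every control, with a log2 difference of -1.01 (limma, adjusted p 0.999). Pdgfc differed by -0.59 with overlapping groups. Pdgfb, the ligand that endothelium makes to recruit pericytes, was below the limit, at 202.8, 158.3 and 59.3 on C1 to C3 and 226.7 and 65.5 on T1 and T2.

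**Figure D2:**
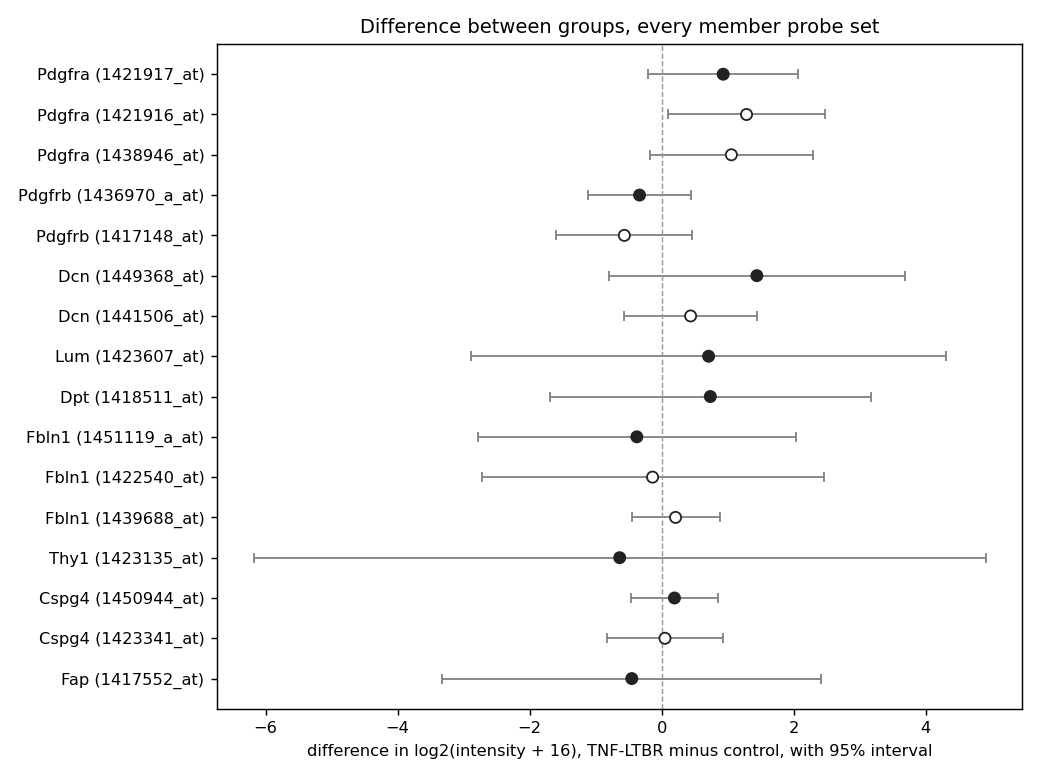
Difference in log2(intensity + 16), TNF-LTBR minus control, for each of the 16 member probe sets, with unadjusted 95% intervals from limma fitted over every probe set; filled points are each gene's brightest probe set. The Thy1 interval runs from -6.18 to 4.91, and of the 16 intervals that of Pdgfra 1421916_at is the one that does not include 0.

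Every member but Cspg4 had a range among the 3 controls wider than the difference between its group means. This held for all 4 genes of secreted matrix proteins. Dcn, which encodes the collagen-binding proteoglycan decorin, read 1204.0, 3506.4 and 12584.9 on C1 to C3 and 7815.4 and 13473.9 on T1 and T2 (1449368_at). C3 and T2 were the high arrays and C1 the low one. The control range was 10.3-fold on the log2(intensity + 16) scale, and 0.879% of all genes had a control range at least as wide. The means were 11.89 ± 1.69 (SD, n = 3) and 13.33 ± 0.55 (SD, n = 2), a 2.72-fold difference. The log2 difference of 1.44 had a 95% interval of -1.04 to 3.92 (limma, adjusted p 0.999). It was 0.63 without C1 and 2.31 without C3.

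Lum, which encodes lumican, the other fibril-binding proteoglycan among the members, read 1145.4, 818.0 and 12967.3 on C1 to C3 and 1103.8 and 12933.2 on T1 and T2. C3 and T2 thus lay near each other, and the other 3 arrays lay close together far below them. The control range was 15.6-fold and the gap between the TNF-LTBR arrays 11.6-fold on the log2(intensity + 16) scale. The group means of 11.18 ± 2.16 and 11.89 ± 2.50 differed by 0.71, with a 95% interval of -3.28 to 4.70 (limma, adjusted p 0.999). The difference was 2.48 without T1, -1.05 without T2, -0.028 without C2, 1.95 without C3 and 0.21 without C1.

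Dpt, which encodes dermatopontin, a small matrix protein that binds decorin, read 504.9, 826.3 and 5518.0 on C1 to C3 and 1543.1 and 3205.3 on T1 and T2. The high arrays were again C3 and T2, and C1 was the lowest. The means of 10.39 ± 1.80 and 11.13 ± 0.74 differed by 0.74, with a 95% interval of -1.95 to 3.43 (limma, adjusted p 0.999). The difference ranged from 0.054 without C1 to 1.76 without C3, and it was 0.40 without C2, 0.21 without T2 and 1.26 without T1. The dim second probe set of Dcn (1441506_at), at intensities of 54.0 to 132.2 and below the brightness limit, had the same pair of high arrays.

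Fbln1, which encodes fibulin-1, a glycoprotein of basement membranes and elastic fibres, followed another order. Its brightest probe set (1451119_a_at) read 315.0, 1615.0 and 234.0 on C1 to C3 and 850.4 and 164.4 on T1 and T2. C2 and T1 were high, and C3 and T2 were low. Probe set 1422540_at kept that order of the 5 arrays, with 162.7, 1139.9 and 132.0 on C1 to C3 and 601.1 and 115.0 on T1 and T2. Probe set 1439688_at was nearly level, at 128.9 to 210.2. The probe sets disagreed in sign, with a log2 difference of -0.14 for 1422540_at and 0.21 for 1439688_at. The means of the brightest probe set were 9.003 ± 1.46 and 8.63 ± 1.60, a difference of -0.38 with a 95% interval of -3.03 to 2.28 (limma, adjusted p 0.999). The difference was 0.46 without C2, 0.76 without T2, -0.69 without C1, -0.89 without C3 and -1.51 without T1.

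Among the surface proteins, Thy1 varied most of all members. Thy1 encodes CD90, a lipid-anchored glycoprotein of fibroblasts, pericytes and T cells, and read 2583.1, 12215.1 and 154.6 on C1 to C3 and 8871.2 and 127.9 on T1 and T2. The high arrays were C2 and T1, as for Fbln1, and the low arrays were C3 and T2. The control range was 71.7-fold on the log2(intensity + 16) scale, and 0.0458% of all genes had one at least as wide. The reading on T2 lay just under the intensity of the brightness limit, so no fold is given against it. The group means of 10.78 ± 3.12 (SD, n = 3) and 10.14 ± 4.21 (SD, n = 2) differed by -0.64, with a 95% interval of -6.79 to 5.52 (limma, adjusted p 0.999). The difference was 2.34 without T2, -3.61 without T1, 0.76 without C2, -2.32 without C3 and -0.35 without C1.

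Fap, which encodes fibroblast activation protein, a membrane protease of activated fibroblasts, read 107.3, 988.4 and 151.3 on C1 to C3 and 542.1 and 56.2 on T1 and T2. C2 and T1 were the high arrays once more. The readings on C1 and T2 lay under the intensity of the brightness limit, so the spread of Fap rests partly on dim readings. The means of 8.10 ± 1.63 and 7.65 ± 2.09 differed by -0.45, with a 95% interval of -3.62 to 2.72 (limma, adjusted p 0.999). The difference was 1.02 without T2, 0.48 without C2, -1.93 without T1, -1.03 without C1 and -0.81 without C3.

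Cspg4, which encodes NG2, a proteoglycan of pericytes and glial progenitors, was the steadiest member in control. Its brightest probe set (1450944_at) read 283.6, 295.1 and 278.6 on C1 to C3 and 251.4 and 429.5 on T1 and T2. The 3 controls lay together, between the 2 TNF-LTBR arrays, and 96.8% of all genes had a control range at least as wide. The means of 8.24 ± 0.040 and 8.43 ± 0.52 differed by 0.19, with a 95% interval of -0.47 to 0.85 (limma, adjusted p 0.999). It was -0.17 without T2 and 0.56 without T1. The second probe set (1423341_at) read 245.6, 297.8 and 323.2 on C1 to C3 and 197.2 and 446.0 on T1 and T2. T2 was the highest and T1 the lowest, as on the first. The controls lay less close together on the second, with an SD of 0.19 against 0.040.

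**Figure D3:**
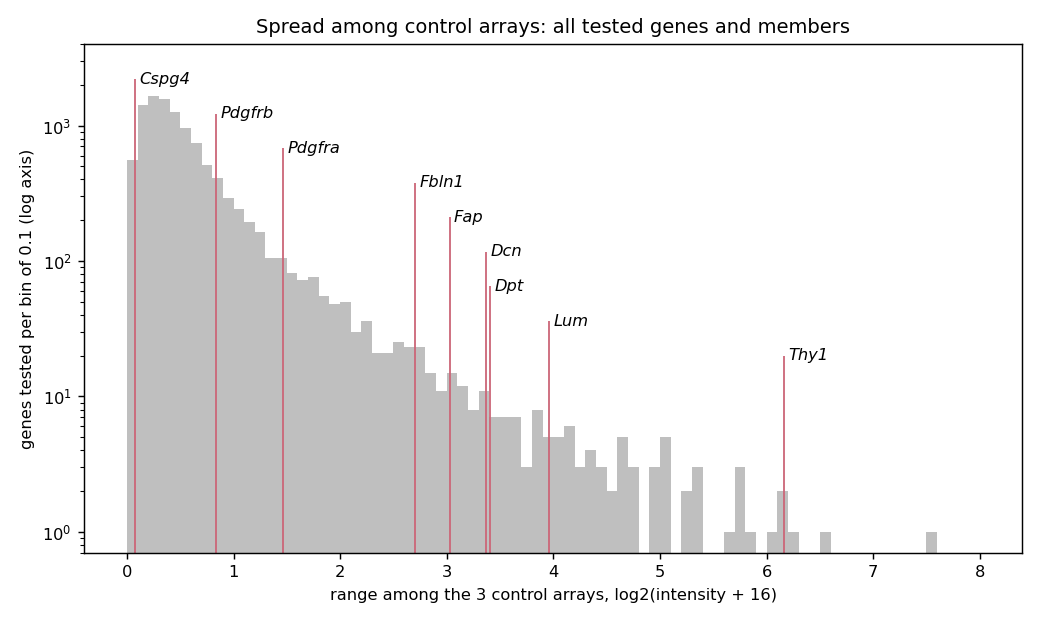
Range among the 3 control arrays in log2(intensity + 16) (horizontal axis) for all 10916 genes tested, as counts per bin of 0.1 (log axis), with red lines at the 9 members. Thy1 lies at 6.16 and 5 other members lie between 2.71 and 3.96, while Cspg4 lies at 0.079.

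Among the members, 2 highest pairs of arrays thus recurred, each of which crossed the titles. The order of the remaining arrays was not the same for all members that shared a pair. C3 and T2 were the highest pair for 4 members, Dcn, Dpt, Lum and Pdgfrb, and for 25.5% of all genes tested. C2 and T1 were the highest pair for 3 members, Fap, Fbln1 and Thy1, and for 20.6% of all genes. These pairs are those of each gene's brightest probe set, on which Pdgfra and Cspg4 had neither. Their other probe sets differed in this. T2 and C3 were the highest pair on Cspg4 1423341_at, and T1 and C2 on Pdgfra 1438946_at, while Pdgfra 1421916_at had neither pair. The likeness of 2 members was measured as the root mean square difference of their log2 profiles over the 5 arrays, each centred on its own mean. Because it is small for any pair of nearly level genes, it is given only for the 7 members that spanned at least 2 on the log2 scale. Among these, Fbln1 and Fap were the nearest pair at 0.36, followed by Dcn and Dpt at 0.47. Lum and Thy1 were the farthest apart, at 4.52.

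By the same measure, the tested genes most like Pdgfra were Mcc, Tcim and Ltc4s, at 0.089, 0.14 and 0.16. Those most like Dcn were Msln, Cyp7b1 and Dlx1, at 0.23, 0.30 and 0.42, and those most like Dpt were Sema3a, Dlx1 and Rdh10, at 0.34, 0.36 and 0.40. Gbp6, Ces1g and Rarres2 were nearest to Lum, at 0.47, 0.48 and 0.51. For Thy1 the nearest genes were Ctla2a, Wfdc17 and Folh1, at 0.27, 0.36 and 0.39. Lrrn4cl, Rgl1 and Ptgs2 were nearest to Fbln1, at 0.15, 0.18 and 0.19, and Svep1, Fbln1 and F3 to Fap, at 0.26, 0.36 and 0.38. Each list was taken from 10916 genes over 5 arrays and describes these arrays only.

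Relatives of the matrix members were measured too. Of 11 other small leucine-rich proteoglycans, 6 lay above the brightness limit, with 2 higher, 4 lower and 0 past the test in TNF-LTBR, and a median difference of -0.10. C3 and T2 were the highest pair for 4 of the 6, against 25.5% of all genes tested. Ogn, which encodes osteoglycin, read 11225.6, 6004.2 and 20478.4 on C1 to C3 and 2557.8 and 17365.6 on T1 and T2. Omd, which encodes osteomodulin and was picked with its values in view, read 421.4, 230.9 and 4014.2 on C1 to C3 and 142.5 and 2362.6 on T1 and T2. Both had the same high pair as Lum. Podn, the member of the list with the smallest p, differed by 0.37 with overlapping groups, and Bgn, which encodes biglycan, was nearly level at 21402.0 to 24860.7.

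Of the other fibulin genes, 5 of 6 were measured and 4 tested, with 1 higher, 3 lower and 0 past the test. Fbln5, which encodes a protein of elastic fibre assembly, read 5660.8, 5003.1 and 11545.3 on C1 to C3 and 2651.2 and 7081.4 on T1 and T2, a difference of -0.67. Fbln7, chosen after its values were seen, read 129.8, 159.8 and 4746.9 on C1 to C3 and 78.8 and 2703.6 on T1 and T2. C3 and T2 were the high pair for both, unlike Fbln1. Efemp1, which encodes fibulin-3, lay at 17315.6 to 21995.4 on all 5 arrays, and Fbln2 had the high pair of Fbln1.

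Of 25 other fibroblast markers, 24 were measured and 19 tested, with 11 higher, 8 lower and 0 past the test, and a median difference of 0.039. Col1a2, which encodes a chain of collagen I, was nearly level and read 17596.6 to 20691.4 on the 5 arrays. Col5a1, which encodes a minor fibrillar collagen chain, had the smallest p of the list, with 5598.2, 5480.3 and 5693.0 on C1 to C3 and 3681.6 and 4760.4 on T1 and T2. T1 and T2 were both under every control, with a log2 difference of -0.42 (limma, adjusted p 0.999). Prrx1, a transcription factor of mesenchyme, differed by 0.31, with both TNF-LTBR arrays above all controls. Pdpn, which encodes podoplanin, a glycoprotein of activated fibroblasts and lymphatic endothelium, read 1198.8, 7962.8 and 220.7 on C1 to C3 and 11151.8 and 328.4 on T1 and T2. It was chosen after its values were seen, and its high arrays were those of Thy1. Of the 19 tested, C2 and T1 were the highest pair for 7, against 20.6% of all genes tested. C3 and T2 were the highest pair for 6, against 25.5%.

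Of 13 other pericyte markers, 11 were measured and 8 tested, with 3 higher, 5 lower and 0 past the test, and a median difference of -0.34. Rgs5, a G protein regulator used as a pericyte marker, read 1086.4, 9401.5 and 1006.5 on C1 to C3 and 13874.5 and 8192.9 on T1 and T2. The groups overlapped through C2, and the log2 difference was 2.28 (limma, adjusted p 0.999). Ndufa4l2 differed by 1.09 with overlapping groups. Anpep, Vtn and Higd1b were below the brightness limit.

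Markers of other cells varied across the same arrays. The summed intensity of 12 smooth muscle markers was 28167.9, 21027.0 and 12625.2 on C1 to C3 and 14606.4 and 12326.7 on T1 and T2. Of the 8 tested, 2 were higher, 6 lower and 0 past the test; Tpm2 differed by -0.27 and Synpo2 by 0.33, each without overlap. Myh11, Cnn1, Myocd and Actg2 were below the brightness limit, and the other 8 lay above it. Acta2, picked with its values in view, read 7581.6, 8169.4 and 2082.0 on C1 to C3 and 4156.4 and 2066.4 on T1 and T2. Tagln, chosen after its values were seen, read 3307.9, 2335.1 and 72.1 on C1 to C3 and 1315.1 and 19.4 on T1 and T2, low on the 2 arrays where Thy1 was low.

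The summed intensity of 10 macrophage and leukocyte markers was 2932.5 to 5765.5 in control and 3457.3 to 6223.1 in TNF-LTBR, with the lower values on C3 and T2. C2 and T1 were the highest pair for 6 of the 7 tested, against 20.6% of all genes tested. The same pair was high for Thy1, Fap and Fbln1. Of these 7, 3 were higher, 4 lower and 0 past the test. Cd53 differed by 0.57 and Laptm5 by 0.38, with overlapping groups, and Ptprc, Fcer1g and Itgam were below the limit. The 17 endothelial markers summed to 3452.0 to 4790.9 in control and 3657.2 to 4259.6 in TNF-LTBR. Eng alone gave 1550.2 to 1858.3 of these sums. Of 7 endothelial markers tested, 3 were higher, 4 lower and 0 past the test, with Plvap at 0.44 without overlap and Esam at -0.42. Of 7 mesothelial markers, 4 were tested, 3 of them higher, 1 lower and 0 past the test, with Msln at 1.402, Krt8 at 0.47 and Krt19 at 0.023, and Upk3b and Wt1 were below the limit. The part of these cell types in the members' differences was not tested.

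**Figure D4:**
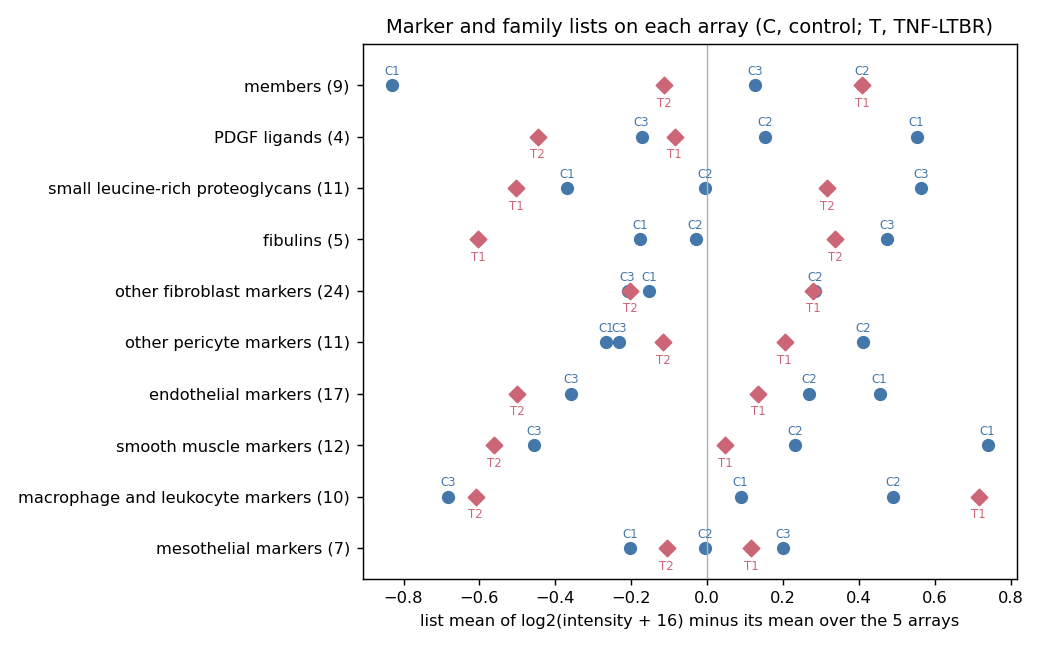
Mean log2(intensity + 16) of each list over its measured genes (number in brackets), minus the list's own mean over the 5 arrays, for control (C1 to C3, blue circles) and TNF-LTBR (T1, T2, red diamonds). C3 and T2 lie to the left of the other 3 arrays for the endothelial, smooth muscle and macrophage lists and to the right of them for the small leucine-rich proteoglycans and fibulins. For the fibulins this rests largely on Fbln7, at 12.22 and 11.41 on C3 and T2 and 6.57 to 7.46 on the others. Fbln2 and Hmcn1 were lowest on C3 and T2. List means include genes below the brightness limit, among them 10 of the 17 endothelial markers.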

How the data were processed

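The authors deposited 1 linear intensity per probe set and array; GCOS version 1.4 is named per the submitters' processing notes, and no source used here gives the summarisation or scaling target. Trimmed means (2% off each end) were 500.0 on every array, so the deposited scaling was kept; medians lay between 109.9 and 120.7. The number of arrays limits the precision.

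Of 45101 probe sets, 34958 had 1 symbol in the platform annotation, 932 several and 9211 none listed. A gene was represented by its single-symbol probe set with the highest mean log2(intensity + 16), and the 60% of genes with the highest means were tested with limma 3.58.1 in R 4.3.3 (lmFit, eBayes with trend, two-sided, Benjamini-Hochberg, threshold 0.05, 3 residual degrees of freedom; tested on simulated data). All 9 members and 15 of their 16 probe sets passed that limit; dimmer probe sets come from a limma fit over every probe set. An exact permutation of 3 against 2 arrays cannot go below p = 0.1. Probe sets differ in binding, so a gene's level against another's does not measure their relative amounts. The brightness limit and the summed intensities of lists set genes side by side and carry this uncertainty.

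Members and lists were chosen with earlier results of these data known. Named from each list were the 2 tested genes with the smallest p and the one with the highest signal, and, for members spanning at least 2 on the log2 scale, the 3 nearest genes. Other genes, among them Vwf, Cdh5, Pdgfb, Omd, Fbln7, Pdpn, Acta2 and Tagln, were named outside this rule with their values in view. Alternatives were pseudocounts 1 and 64, no filter, a 40% filter, quantile normalization, median centring, every probe set, the mean of a gene's probe sets, no trend, a replicate block, and dropping each array in turn.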

Additional observations from a re-analysis of the deposited data

How the results depend on the processing

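Under the 15 alternatives, 0 genes and 0 members passed limma's test, with the smallest adjusted p over all genes 0.563 and that of a member 0.944; 113 to 481 genes and 0 to 2 members had an unadjusted p under 0.05. Of 133 member values recomputed, 123 kept their direction and 10 reversed, each with 1 array left out. Direction could not change with no filter, the stricter filter, every probe set or no trend. These left the difference of each tested member as in the main fit. The replicate block repeated the differences of the fit without control replicate 3. The 123 values are therefore not separate checks of direction. Over the fits that left out 1 array the log2 difference ranged from -1.05 to 2.48 for Lum, -1.51 to 0.76 for Fbln1, -3.61 to 2.34 for Thy1, -1.93 to 1.02 for Fap, -0.71 to 0.044 for Pdgfrb and -0.17 to 0.56 for Cspg4; Pdgfra (0.45 to 1.18), Dcn (0.63 to 2.31) and Dpt (0.054 to 1.76) kept their direction. The arrays behind the reversals were control replicate 2 (Lum -0.028, Fbln1 0.46, Thy1 0.76, Fap 0.48), TNF-LTBR replicate 1 (Pdgfrb 0.044) and TNF-LTBR replicate 2 (Lum -1.05, Fbln1 0.76, Thy1 2.34, Fap 1.02, Cspg4 -0.17). Where 1 TNF-LTBR array remained, it was assumed to vary like the controls. With the stricter filter Cspg4 and Fap were not tested. Arrays of the same replicate number did not deviate alike from their group means. Across genes, these deviations correlated at 0.13 for number 1 and -0.80 for number 2. With 2 TNF-LTBR arrays their deviations mirror each other, so the 2 values are not independent. They cannot show whether arrays with the same number shared a culture. With the replicate block, in which control replicate 3 has no partner, 0 members passed and Thy1 was at -2.32, Dcn at 2.31, Lum at 1.95 and Dpt at 1.76. Averaging a gene's probe sets gave 0.94 for Dcn, 1.09 for Pdgfra and -0.10 for Fbln1.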
